A study of Mus musculus with 8 samples.

Results

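The genes described are the BCL-2 family members Bcl2l11 (BIM), Bbc3 (PUMA), Bmf, Bid, Bcl2, Bcl2l1 (BCL-XL), Mcl1, Bax, Bak1 and Pmaip1 (NOXA), taken by symbol from a table of 18438 genes. Of these 10 symbols, 9 were found, and all 9 passed the filter on low values; Pmaip1 was not analysed here. All groups came from C57BL/6 spleens on day 7 of experimental autoimmune encephalomyelitis (EAE), a model of multiple sclerosis set off with the myelin antigen MOG, so no group is free of disease. There were 2 libraries in each of 4 groups: Treg of mice labelled IRE1a-/- (KO), Treg of wild-type mice (WT), Teff of KO mice and Teff of WT mice. Treg, the suppressive T cells, were taken by the gate CD4+ CD25hi YFP+, and Teff, the effector T cells, by the gate CD4+ CD25- YFP-. IRE1a, encoded by Ern1, senses misfolded protein in the endoplasmic reticulum. The labels do not name the promoter of the YFP reporter, the cells in which Ern1 was deleted or whether a library came from 1 animal or several. Whether the Teff themselves lacked IRE1a therefore cannot be told from them.

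BCL-2 proteins decide whether the outer mitochondrial membrane is breached, the step that commits a cell to apoptosis. BAX and BAK form the pores, BCL-2, BCL-XL and MCL-1 hold them in check, and the BH3-only proteins BIM, PUMA, BMF and BID, made or activated under stress or cytokine loss, bind the guardians or activate BAX and BAK. In T cells BIM is the main killer after cytokine withdrawal and at the end of an immune response, and IL-7 and IL-2 signals oppose it through BCL-2 and MCL-1.

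What all 9 genes share is the BH3 stretch, through which family members bind each other. It is printed to set the genes called between genotypes below beside the others. The stretches were found by a search for the core pattern marked here, so that all 9 hold it is no result. A narrower pattern, with isoleucine, valine or methionine before the glycine or alanine, was met by all but Bcl2 and Bcl2l1. Each line gives 45 coding bases, 5′ to 3′, from the GENCODE release M21 transcripts of GRCm38. Capitals mark the codons of the conserved leucine and of the glycine or alanine followed by aspartate.
Bcl2l11 (chromosome 2): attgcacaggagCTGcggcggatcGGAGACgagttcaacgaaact
Bbc3 (chromosome 7): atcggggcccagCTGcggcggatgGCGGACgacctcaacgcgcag
Bmf (chromosome 2): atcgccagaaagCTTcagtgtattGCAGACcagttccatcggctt
Bid (chromosome 6): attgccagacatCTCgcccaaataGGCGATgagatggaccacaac
Bcl2 (chromosome 1): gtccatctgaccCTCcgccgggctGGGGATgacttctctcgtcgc
Bcl2l1 (chromosome 2): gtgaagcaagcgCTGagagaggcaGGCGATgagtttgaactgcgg
Mcl1 (chromosome 3): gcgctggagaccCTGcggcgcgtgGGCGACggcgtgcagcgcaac
Bax (chromosome 7): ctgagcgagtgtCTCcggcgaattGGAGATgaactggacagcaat
Bak1 (chromosome 17): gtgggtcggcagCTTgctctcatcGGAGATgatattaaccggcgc
In Bcl2l11 this stretch lay in 4 of 5 annotated coding transcripts, and the deposited values, given per gene, do not separate them.

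Values are the deposited normalized read numbers, given as replicate 1 and replicate 2 of a group. Their sums over all genes lay between 17504097 and 18751258 after the authors' normalization, and the sequencing depth before it is unknown. Ern1 itself had 326 and 359 in KO Treg, against 377 and 399 in WT Treg, and 458 and 453 in KO Teff, against 559 and 616 in WT Teff. A difference is called at a Benjamini-Hochberg adjusted p under 0.05 over all tested genes, from limma, a linear model that shares variance between genes. Neither Ern1 difference was called (limma adjusted p = 0.489 in Treg and 0.0902 in Teff), and whole-gene values can include transcripts of a disrupted allele, so they do not check the genotype labels. Foxp3, the lineage factor of Treg, had 111 and 117 in KO Treg, 89.1 and 92.2 in WT Treg, 2.06 and 8.29 in KO Teff and 0 in both WT Teff libraries. The sum of 5 Treg markers with Foxp3 among them lay at 45504 to 46491 in KO Treg, 51953 to 52398 in WT Treg, 6194 to 7009 in KO Teff and 8829 to 10048 in WT Teff, far higher in Treg. Transcripts of other cells were present. The sum of 6 of 7 macrophage and monocyte markers found was 8544 to 9154 in KO Treg, 14985 to 15379 in WT Treg, 552 to 766 in KO Teff and 806 to 1736 in WT Teff, and none of the 6 was at 0 in both libraries of a group. The sum of 5 cell cycle markers was 2823 to 2920 in KO Treg, 4107 to 4259 in WT Treg, 1523 to 1747 in KO Teff and 3706 to 3903 in WT Teff. Sums in Teff were also lower in KO for 3 dendritic cell markers (334 to 595 in KO Teff, 722 to 1375 in WT Teff) and 4 NK cell markers (454 to 556 in KO Teff, 695 to 786 in WT Teff). The same held for 3 plasmacytoid dendritic cell markers (336 to 522 in KO Teff, 636 to 921 in WT Teff) and 2 plasma cell markers (53.5 to 61.7 in KO Teff, 127 to 178 in WT Teff). In Treg, sums were higher in KO for 5 B cell markers (470 to 476 in KO Treg, 322 to 346 in WT Treg), with Pax5 at 178 and 162 in KO Treg, against 5.74 and 2.87 in WT Treg. The sum of plasmacytoid dendritic cell markers was also higher (292 to 302 in KO Treg, 158 to 198 in WT Treg). That came from Tcf4 (means 172 in KO Treg, 90.8 in WT Treg) and Ccr9 (122 in KO Treg, 83.4 in WT Treg). Siglech was near the floor and not higher (2.44 in KO Treg, 4.11 in WT Treg). Sums of dendritic cell markers (186 to 207 in KO Treg, 342 to 367 in WT Treg) were lower. So were those of plasma cell markers (31.7 to 33.5 in KO Treg, 48.5 to 58.5 in WT Treg). The part of these in the differences below was not tested, and in bulk RNA fewer cells of a type and less RNA per cell cannot be told apart.

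In KO Treg, Bim transcript was 1.94-fold higher and no other family member was called. Bcl2l11 (chromosome 2, 128126038 to 128162547 of GRCm38, plus strand) encodes BIM, which binds all the guardians tightly. It had 1398 and 1205 in KO Treg, against 660.4 and 678 in WT Treg. Both KO libraries were far above both WT libraries. The log2 fold change of KO over WT was 0.95 (SE 0.10, limma adjusted p = 0.00626), on the scale of log2(value + 1), as are all fold changes here. The call was lost when either WT Treg library was left out (adjusted p = 0.0748 without replicate 1 and 0.0652 without replicate 2), with the fold change at 0.94 and 0.97.

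**Figure D1:**
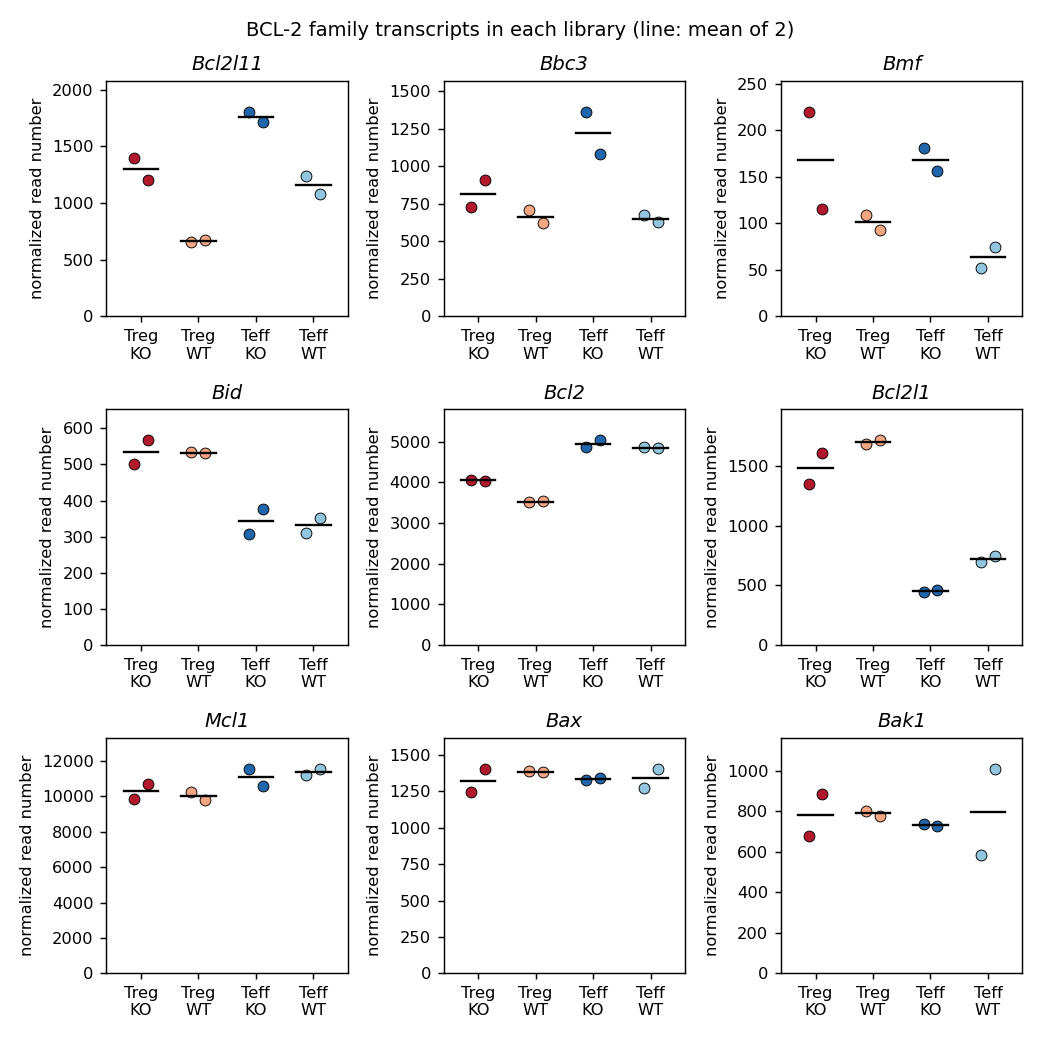
Normalized read number (vertical axes, from 0) of the 9 family members in Treg KO, Treg WT, Teff KO and Teff WT; each point is a library and each line the mean of 2. Bcl2l11 is higher in KO in both cell types, Bcl2l1 is lowest in KO Teff, and Bax and Mcl1 differ little.

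The other BH3-only members lay at or above WT in KO Treg without passing the test. Bbc3 encodes PUMA, a target of p53 and of FOXO factors. It had 725 and 906 in KO Treg, against 705 and 623 in WT Treg. The groups did not overlap, but only by a narrow margin (log2 fold change 0.29, SE 0.15, limma adjusted p = 0.447). Bmf, whose protein is held at the actin-bound motor complex in healthy cells, had 219.7 and 116 in KO Treg, against 109 and 93.2 in WT Treg. KO replicate 1 stood well above the other 3 libraries (log2 fold change 0.66, SE 0.33, adjusted p = 0.419). Bid, which links death receptors to mitochondria once caspase-8 has cut it, had 501 and 567 in KO Treg, against 533 and 531 in WT Treg. The KO libraries lay on either side of the WT pair (log2 fold change 0.00, 95% interval -0.31 to 0.32). Bad and Bik are BH3-only genes outside the member set, and neither was called in Treg. Bad was lower on average, with overlap (61.2 and 115 in KO Treg, 146 and 96.4 in WT Treg). Bik was low and higher in KO (20.9 and 29.0 in KO Treg, 14.5 and 14.1 in WT Treg).

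Of the guardians, none was called in Treg. Bcl2 had 4068 and 4020.3 in KO Treg, against 3510.2 and 3539 in WT Treg. The KO pair was above the WT pair with a tight spread (log2 fold change 0.20, SE 0.05), and the difference missed the threshold (limma adjusted p = 0.113). Bcl2l1 encodes BCL-XL, which activated T cells induce. It had 1349 and 1614 in KO Treg, against 1685 and 1717 in WT Treg, so that the KO pair was the lower (log2 fold change -0.20, SE 0.10, adjusted p = 0.416). Mcl1, whose short-lived protein Treg depend on, had 9867 and 10690.4 in KO Treg, against 10220.3 and 9780.3 in WT Treg, and these overlapped (log2 fold change 0.04, 95% interval -0.11 to 0.19).

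The pore formers did not separate the genotypes in Treg. Bax had 1244 and 1406 in KO Treg, against 1389.7 and 1381 in WT Treg (log2 fold change -0.07, 95% interval -0.27 to 0.13). Bak1 had 677 and 888 in KO Treg, against 802 and 776 in WT Treg (log2 fold change -0.03, 95% interval -0.59 to 0.54). Both pairs of groups overlapped, and the interval of Bak1 is wide. Over all 9 members 1 was called in Treg, higher, where limma called 1.45% of 13358 tested genes (0.674% higher, 0.779% lower). With either WT Treg library left out the count was 0. The groups did not overlap for 5 of 9 members, 4 higher and 1 lower, against 48.7% of all tested genes. The median log2 fold change of the 9 was 0.04, beside -0.01 over all tested genes.

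In KO Teff, 3 of the 4 BH3-only members measured rose and the guardian gene Bcl2l1 fell. Bcl2l11 had 1806 and 1711 in KO Teff, against 1236 and 1083 in WT Teff. Both KO libraries were above both WT libraries (log2 fold change 0.60, SE 0.10, limma adjusted p = 0.0168). Bbc3 (chromosome 7, 16308393 to 16318205, plus strand) had 1362 and 1078 in KO Teff, against 672 and 631 in WT Teff. The lower KO library was still above both WT libraries by a wide margin (log2 fold change 0.89, SE 0.15, adjusted p = 0.0173). Bmf (chromosome 2, 118528757 to 118549687, minus strand) had 180.3 and 156 in KO Teff, against 52.2 and 75.002 in WT Teff. Both KO libraries were well above both WT libraries. Its fold change was the largest of the 9 (log2 fold change 1.41, SE 0.33) and its adjusted p lay just under the threshold (0.0473). Bid had 308 and 377 in KO Teff, against 311 and 351 in WT Teff, with overlap (log2 fold change 0.05, 95% interval -0.27 to 0.36). Bad and Bik, BH3-only genes outside the 9, went the other way without a call. Bad had 68.9 and 35.1 in KO Teff, against 61.4 and 86.7 in WT Teff, with overlap. Bik had 69.6 and 74.2 in KO Teff, against 79.9 and 91.4 in WT Teff.

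Bcl2l1 (chromosome 2, 152780668 to 152831728, minus strand) had 444 and 464 in KO Teff, against 695 and 743 in WT Teff. The groups were well apart (log2 fold change -0.66, SE 0.10, limma adjusted p = 0.0121). The other guardians showed no such difference. Bcl2 had 4856 and 5034 in KO Teff, against 4855 and 4850.2 in WT Teff. The lower KO library was almost equal to the WT pair (log2 fold change 0.03, 95% interval -0.09 to 0.14). Mcl1 had 11563 and 10612 in KO Teff, against 11230.1 and 11541 in WT Teff, with overlap (log2 fold change -0.04, 95% interval -0.19 to 0.11).

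Among the pore formers, Bax had 1331 and 1340.7 in KO Teff, against 1274 and 1407 in WT Teff (log2 fold change 0.00, 95% interval -0.20 to 0.20). Bak1 had 735 and 729 in KO Teff, against 586 and 1010.4 in WT Teff (log2 fold change -0.07, 95% interval -0.64 to 0.50). For both genes the KO pair lay between the WT libraries, which for Bak1 stood far apart. Exons of Bak1, Bax, Bcl2 and Bid overlap those of another annotated gene, on the opposite strand for Bak1, Bcl2 and Bid and on the same strand for Bax. Reads from these overlaps cannot be told apart, with no strand marking named. Those of Bcl2l11, Bbc3, Bmf, Bcl2l1 and Mcl1 overlap no other annotated exon.

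In all, 4 of 9 members were called in Teff, 3 higher and 1 lower, where limma called 6.92% of tested genes (1.84% higher, 5.08% lower). The groups did not overlap for 5 of 9, against 49.8% of all tested genes, and the median was 0.03, beside -0.02 over all. The count of called members rested on single libraries. It was 0 without KO Teff replicate 1, 1 without KO Teff replicate 2, 2 without WT Teff replicate 1 and 0 without WT Teff replicate 2. It was also 0 when only the 2 Teff groups were fitted, where the adjusted p was 0.0556 for Bcl2l11, 0.05003 for Bbc3, 0.0638 for Bmf and 0.0531 for Bcl2l1. Of 19 alternatives, 5 lost the call of Bcl2l11, 5 that of Bbc3 and 4 that of Bcl2l1 (adjusted p up to 0.0849, 0.0926 and 0.0682). Bmf was lost in 10, with an adjusted p up to 0.165, among them those without either WT Treg library (0.0826 and 0.0822), which bear on it only through the shared estimate of spread.

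**Figure D2:**
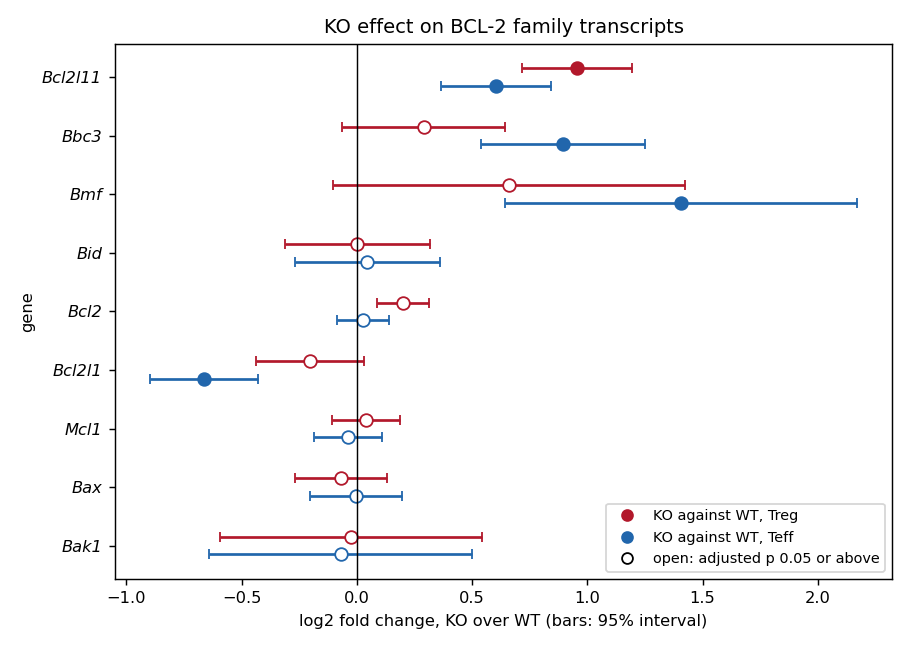
Log2 fold change of KO over WT (horizontal axis) for each member in Treg and in Teff, with 95% intervals; filled points have an adjusted p under 0.05. Bcl2l11 is filled in both cell types, and Bbc3, Bmf and Bcl2l1 in Teff, while the intervals of Bid, Mcl1, Bax and Bak1 cross 0 in both.

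The authors' deposited table, made with another method, called the same gene in Treg and the same 4 in Teff. There Bcl2l11 had a log2 fold change of 0.96 in Treg (adjusted p = 5.64e-11) and 0.60 in Teff (9.31e-05). In Teff the authors' deposited table gave 0.90 for Bbc3 (1.56e-05), 1.41 for Bmf (0.0100) and -0.66 for Bcl2l1 (5.85e-05). It gave Bcl2 in Treg 0.20 (adjusted p = 0.0563). Over the genes with an adjusted p, the authors' deposited table called 3.28% in Treg and 8.82% in Teff.

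A call in one cell type and not in the other does not show that the effects differ, so the difference was tested. No member was called for the KO effect in Treg minus that in Teff, where limma called 3 of 13358 genes (0.0225%). At an unadjusted p under 0.05, there were 4 of 9 members and 1384 of all tested genes. Bcl2l11 had a difference of 0.35 (SE 0.14, limma adjusted p = 0.454), the effect being larger in Treg. Bbc3 had -0.60 (SE 0.21, adjusted p = 0.383), the effect being larger in Teff. Bcl2l1 had 0.46 (SE 0.14, adjusted p = 0.329), Bcl2 0.17 (SE 0.07, adjusted p = 0.444) and Bmf -0.75 (SE 0.46, adjusted p = 0.652).

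Set against Bim within each library, Bcl2 and Bcl2l1 were lower in KO. Mcl1 was not set against Bim. Bcl2l11 was itself higher in KO, so the lower ratios in part restate that rise and are no separate result. Bcl2 alone was not lower in KO (log2 fold change 0.20 in Treg and 0.03 in Teff). These ratios of normalized read numbers depend on transcript lengths and are compared only between libraries, without a test. The ratio of Bcl2 to Bcl2l11 was 2.91 and 3.34 in KO Treg, against 5.32 and 5.22 in WT Treg. In Teff it was 2.69 and 2.94 in KO, against 3.93 and 4.48 in WT. Every KO library thus lay below every WT library in both cell types. The ratio of Bcl2l1 to Bcl2l11 was 0.965 and 1.34 in KO Treg, against 2.55 and 2.53 in WT Treg. In KO Teff it was 0.246 and 0.271, against 0.562 and 0.686 in WT Teff. WT Treg had the highest and KO Teff the lowest values of this ratio, with no overlap between any of the 4 groups.

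**Figure D3:**
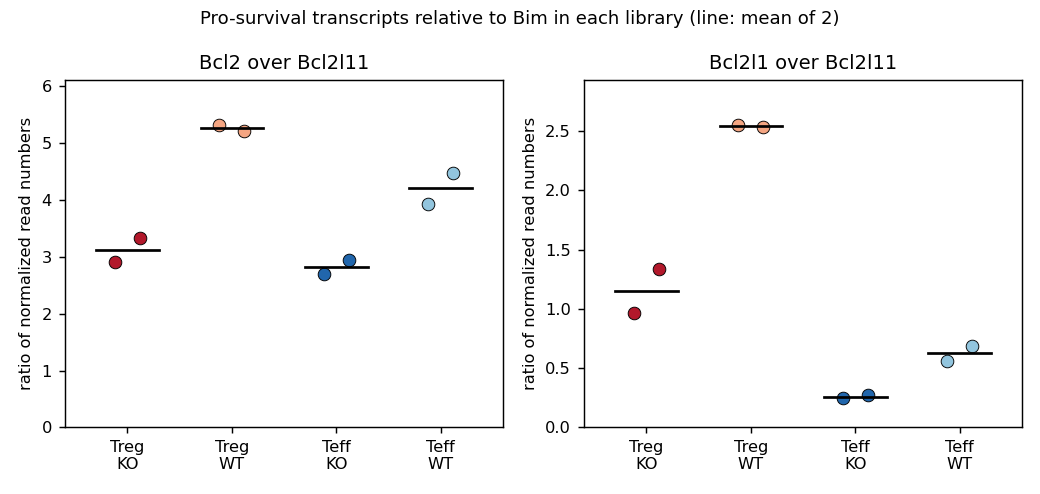
Ratio of the normalized read numbers of Bcl2 (left) and Bcl2l1 (right) to Bcl2l11 in each library of the 4 groups, with the mean of 2 as a line. KO Treg lies at 2.91 to 3.34 on the left, below WT Treg, and KO Teff at 0.246 to 0.271 on the right, below WT Teff.

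Treg and Teff differed in the levels of Bcl2l1 and Bcl2, in opposite directions. Bcl2l1 was higher in Treg (log2 fold change of Treg over Teff 1.70 in KO, SE 0.10, limma adjusted p = 3.72e-05; 1.24 in WT, adjusted p = 0.000179). Bcl2 was lower in Treg (-0.29 in KO, SE 0.05, limma adjusted p = 0.00397; -0.46 in WT, adjusted p = 0.000541). Bcl2l11 was also lower in Treg (-0.44 in KO, limma adjusted p = 0.0170; -0.79 in WT, adjusted p = 0.00136). Bid was higher in Treg (0.64 in KO, limma adjusted p = 0.0112; 0.69 in WT, adjusted p = 0.00902). These calls are read from values given above, since both comparisons use the libraries of the genotype comparisons.

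Bbc3 was lower in Treg among KO cells (-0.58, limma adjusted p = 0.0271), and in WT cells the difference was 0.02 (adjusted p = 0.928). Mcl1 (-0.11 in KO, adjusted p = 0.248; -0.19 in WT, adjusted p = 0.0688) and Bmf, Bax and Bak1 were not called in either genotype. In KO cells 5 of 9 members were called, 2 higher and 3 lower, against 26.9% of tested genes (15.7% higher, 11.2% lower). That count was 3 without KO Treg replicate 2 and 2 without KO Teff replicate 1. In WT cells 4 of 9 members were called, 2 in each direction, against 25.1% of tested genes (13.5% higher, 11.6% lower). The calls of Bcl2l1 and Bcl2 held under all 19 alternatives in both genotypes (adjusted p at most 0.0332), as did that of Bcl2l11 in WT (at most 0.0133). In KO that of Bid was lost without KO Treg replicate 2 or KO Teff replicate 1 (up to 0.0741) and that of Bcl2l11 without KO Treg replicate 2 or either KO Teff library (up to 0.0991). That of Bbc3 was lost without KO Treg replicate 1 or KO Teff replicate 1 (up to 0.143) and in 2 other alternatives (0.0625 and 0.0640). In WT that of Bid was lost without either WT Treg library or WT Teff replicate 1 (up to 0.0521). Macrophage marker sums also stood far higher in Treg than in Teff, as given above, and their part was not tested.

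Levels can be set between genes only per length, here as normalized reads per kilobase of the exons of all annotated transcripts. Mcl1 led in every group, at 3007 ± 170.4 in KO Treg, 2926 ± 91.0 in WT Treg, 3244 ± 197 in KO Teff and 3331 ± 64.3 in WT Teff (SD, n = 2). Bax followed at 840.5 to 879 over the group means. Bmf was last in every group, between 12.1 and 32.0. Between these, Bcl2 stood above Bak1 everywhere, at 442 ± 3.67 against 325 ± 61.9 in KO Treg and 385 ± 2.23 against 328 ± 7.70 in WT Treg.

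Some neighbours in that order could not be separated. In KO Teff, Bbc3 (574 ± 94.6) and Bcl2 (540.1 ± 13.7) overlapped, and so did Bcl2l1 (99.0 ± 3.01) and Bid (96.5 ± 13.8). In WT Teff, Bcl2l1 (157 ± 7.34) and Bcl2l11 (144 ± 13.5) overlapped. In KO Treg, Bcl2l11 (162 ± 16.96) and Bid (150.4 ± 13.2) overlapped, whereas in WT Treg Bcl2l11 (83.4 ± 1.56) lay below Bid (149.9 ± 0.409). The order of the middle members depends on the length used. With the longest coding transcript Bcl2l1 ranked 3 of 9 in both Treg groups, and with all exons 6 in KO Treg and 4 in WT Treg, while Mcl1, Bax and Bmf kept their ranks.

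**Figure D4:**
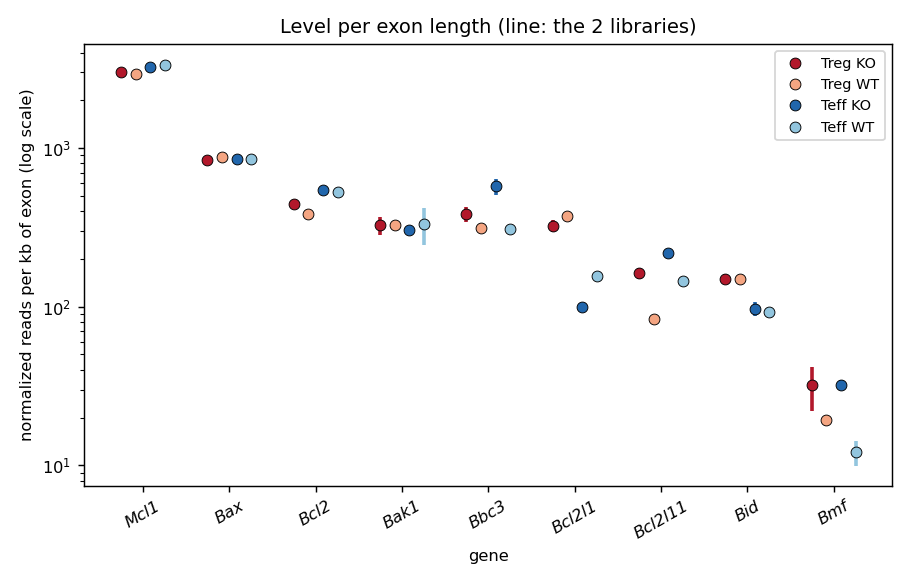
Normalized reads per kilobase of exon (log axis) for each member in the 4 groups; points are means of 2 libraries and vertical lines join the 2 libraries. Mcl1 is on top and Bmf at the bottom in every group, and Bcl2l1 is spread most between Treg and Teff.

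The transcripts whose pattern over the 8 libraries was most like that of Bcl2l11 were not family members. Likeness was the root mean square difference of log2 values after centring each gene on its mean, over 9381 genes with a mean of at least 100. Kbtbd11 was nearest (0.0748), with 8674 and 7184 in KO Treg, 4222 and 4740.0 in WT Treg, 11013 and 11651 in KO Teff and 7601 and 6754 in WT Teff. Cfap74 (0.123), Tmem267 (0.131), Trim12a (0.136) and Zfp386 (0.156) came next. Of the family, Bbc3 ranked 354 (0.346) and Bcl2 ranked 501 (0.365), so neither followed Bcl2l11 closely over all 4 groups.

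Stretches of promoter are shown for Bcl2l11 and Bbc3, both higher in KO Teff, because among the 9 genes they alone held the FOXO motif GTAAACA or its reverse complement TGTTTAC. Promoters were 300 bases each (250 before to 50 after a start site, RefSeq, GRCm38.p6), 16 for the 9 genes, and both strands were searched. One of 2 promoters of Bcl2l11 and one of 3 of Bbc3 held it. Capitals mark the match.
Bcl2l11, chr2:128125791-128125837, plus strand: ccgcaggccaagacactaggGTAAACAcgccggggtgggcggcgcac
Bbc3, chr7:16310074-16310120, plus strand: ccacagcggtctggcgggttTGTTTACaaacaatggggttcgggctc
The match began 227 bases before the start site in Bcl2l11 and 167 before it in Bbc3, and 3.65% of all 32851 promoters held one. The 3 promoters of Bmf held none in this window. The motif TGACGTGG, of the kind bound by XBP1, which IRE1a activates, was in 0 of the 16 (0.676% of all), and CACGTG was in 2 of 16, of Bbc3 and Bax (7.15% of all). Family promoters had a median GC content of 61.0%, and all promoters one of 52.7%. A match is a run of letters and says nothing of binding in these cells.

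In the other cell death lists few genes were called, and in KO Teff all of those except Il7r were lower. The other BCL-2 relatives include the BH3-only genes Bad and Bik. Of 12 tested genes among these relatives, 3 fell in KO Teff and none rose. Their median log2 fold change was -0.46, beside -0.02 over all tested genes. Several of the 12 were low in Teff, where fold changes are uncertain. Bcl2a1a had a mean of 9.79 in KO Teff and 16.1 in WT Teff, and Bcl2l15 9.88 in KO Teff and 15.6 in WT Teff. Bcl2l14 had 20.1 in KO Teff and 26.4 in WT Teff. Bcl2a1b and Bcl2a1d encode A1, a guardian induced by NF-kB. Bcl2a1b had 370.0 ± 83.4 in KO Teff and 750.5 ± 162 in WT Teff (SD, n = 2; log2 fold change -1.02, limma adjusted p = 0.0224), and Bcl2a1d 219.5 ± 23.5 in KO Teff and 375 ± 72.9 in WT Teff (-0.76, adjusted p = 0.0328). The A1 genes are near-identical copies that macrophages also express, so the split of reads between them is uncertain. Bcl2l2 (BCL-W) was low and fell (66.5 ± 1.40 in KO Teff, 135 ± 0.309 in WT Teff; adjusted p = 0.0400), and a read-through gene overlaps it. In KO Treg, 0 of the 12 were called, and their median was -0.14; Bcl2l2 had -0.87 (adjusted p = 0.126) and Bcl2a1d -0.49 (adjusted p = 0.212).

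Among 15 tested genes that act downstream of mitochondria, the median log2 fold change of KO over WT was -0.07 in Treg and -0.14 in Teff. Birc2, an inhibitor of apoptosis, had 2278 ± 57.5 in KO Treg and 2698 ± 194 in WT Treg (SD, n = 2; log2 fold change -0.24, limma adjusted p = 0.278). In Teff it had 1315 ± 86.6 in KO and 1479 ± 128 in WT (-0.17, adjusted p = 0.335).

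Among 16 genes that act on the family, Il7r, the receptor whose signal maintains BCL-2, was the 1 called in Treg, higher (10324 ± 269 in KO Treg, 7435 ± 522 in WT Treg, SD, n = 2; log2 fold change 0.48, limma adjusted p = 0.0480; median of the list 0.00). In Teff Il7r rose (0.74, adjusted p = 0.00493) and Il2rb, a chain of the IL-2 and IL-15 receptors, fell (-0.56, adjusted p = 0.00584; median -0.02). Il2rg, the chain that IL-2, IL-7 and IL-15 receptors share, had -0.18 in Treg (adjusted p = 0.198). The transcription factors known to act on Bim and PUMA genes were not called. Foxo1 had 0.10 in Treg and 0.05 in Teff, Foxo3 -0.13 and -0.05, Trp53, which encodes p53, -0.13 and 0.00, and Ddit3, which encodes CHOP of the ER stress response, 0.18 in each (limma adjusted p between 0.362 and 0.997). These are transcript levels and do not show the activity of the proteins.

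Genes that p53 drives gave 0 calls of 9 tested in Treg (median -0.09) and 1 in Teff, Trp53inp1, which fell (log2 fold change -0.27, limma adjusted p = 0.0359; median -0.03). The nearest to a call in Treg was Btg2, an antiproliferative gene, at 0.36 (adjusted p = 0.0506), ahead of Trp53inp1 at -0.16 (0.256), and Sesn2, a stress sensor of mTOR signalling, had -0.41 in Teff (0.132). In the death receptor pathway 0 of 10 were called in Treg (median 0.03), and in Teff 1 fell (median 0.02), the cytokine gene Tnf (-0.70, limma adjusted p = 0.00647). Tnf had -0.34 in Treg (adjusted p = 0.129), Fasl, the Fas ligand gene, -0.36 in Treg (0.509) and Tnfsf10, which encodes TRAIL, -0.38 in Teff (0.0870). Over the 5 lists, calls in Treg are to be read beside the 1.45% of all tested genes called there. Calls in Teff are to be read beside 6.92% of all tested genes (5.08% lower). The alternatives were tried gene by gene only for the 9 members. Whether the single calls in these lists, several near the threshold, rest on 1 library was therefore not tested.

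**Figure D5:**
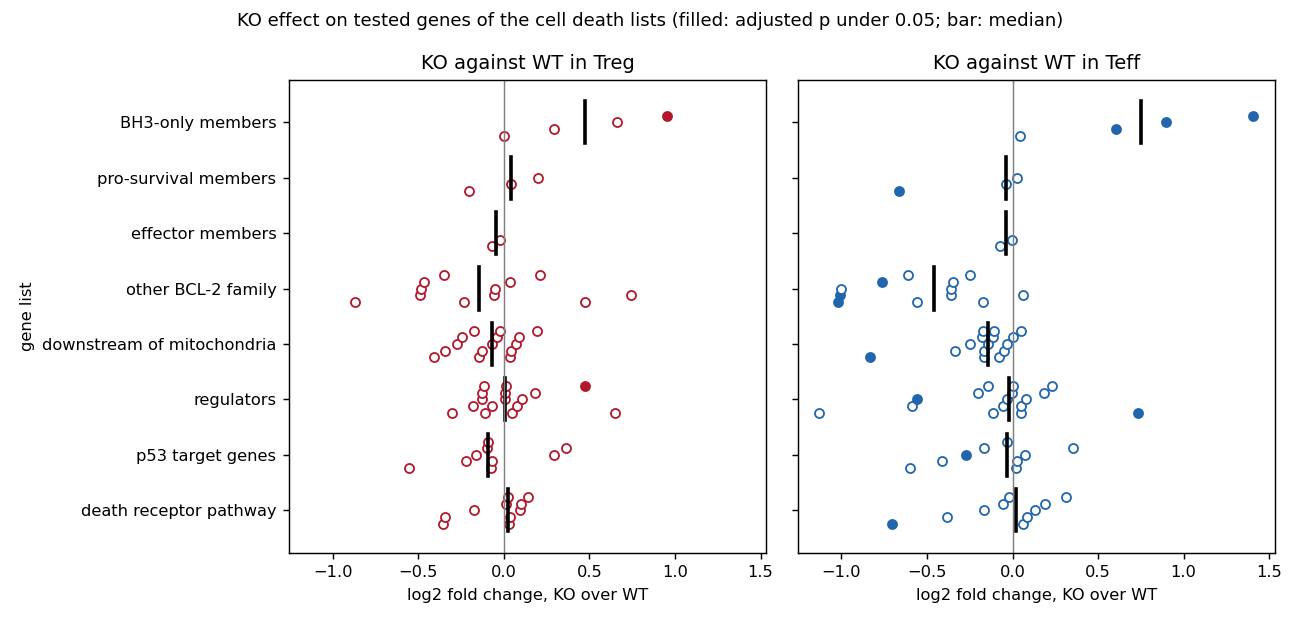
Log2 fold change of KO over WT (horizontal axes) for each tested gene of 8 cell death lists, in Treg (left) and Teff (right); filled points have an adjusted p under 0.05 and bars are list medians. The list of 4 BH3-only members has the highest median in both (0.47 in Treg, 0.75 in Teff). In Treg only Bcl2l11 of these 4 was called. The list leaves out the BH3-only genes Bad and Bik, which are drawn with the other BCL-2 relatives. Of these 12 relatives, several of them at low values, 11 lie to the left of 0 in Teff, with a median of -0.46.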

How the data were processed

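Per the labels, TRIzol RNA was selected with oligo(dT) beads and read as 50-base single ends; no strand marking or molecular identifier is named. Per the submitters' processing notes, Trim Galore 0.4.4, Salmon 0.14.1, R 4.0.3, DESeq2 1.28.1 and build mm10 were used. For each library the authors deposited a signal column of normalized read numbers with decimals; 46.5% to 50.9% of values between 0 and 100 were whole multiples of the commonest step (tolerance 0.02), so no count test was run. The authors' log2 fold changes and adjusted p-values are used only where their table is named.

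On the scale of log2(value + 1), limma 3.58.1 (R 4.3.3, with trend and robust settings) fitted 1 coefficient per group over all 8 libraries, leaving 4 residual degrees of freedom. It took the 13358 genes that reached 10 in 2 or more libraries. P-values were adjusted by Benjamini-Hochberg over all tested genes within each of 5 contrasts and called at 0.05; with 2 libraries per group they measure only the spread between libraries, which may be technical. The fit was tested on simulated data. The design allowed for counts, and the test it named for a table without counts was used. Members and lists were chosen with earlier results of these data known. Named were all 9 members found, Ern1, per other list and genotype contrast the 2 genes of smallest p and any called (1 gene is not reported here), and the 5 genes most like Bcl2l11; the FOXO genes, Trp53 and Ddit3 were named after their values were seen. Gene models came from GENCODE M21 (GRCm38); 97.2% of IDs matched with version. A symbol that the file gives to several IDs was looked up by ID, which separates Bcl2l2 from Pabpn1.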

Additional observations from a re-analysis of the deposited data

How the results depend on the processing

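Pseudocount, filter, scaling (library totals, upper quartile, quantile, TMM), variance shrinkage, the groups fitted, a replicate block and each library were varied. For single members, 776 values kept direction and side of the threshold, 38 lost a call, none gained one and 32, none of them called, changed sign. Genotype calls rest on few libraries, and depth is unknown. Causes of these changes were not tested.

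Genes called for KO over WT in Treg numbered 194, and 114 with the replicate block, 129 with a crossed block and 44 to 192 with 1 library left out. In Teff they numbered 924, and 571 without trend and robust settings, 210 with only the 2 groups fitted and 347 to 642 with 1 library left out. Members called in Treg numbered 0 to 1 with 1 library left out. In Teff they numbered 4, and 1 without trend and robust settings, 0 with only the 2 groups fitted and 0 to 4 with 1 library left out. The difference of the KO effects gave 3 genes, and 6 with a pseudocount of 5, 5 without a filter, 5 with library totals, 11 without trend and robust settings and 0 to 3 with 1 library left out. For Treg over Teff, 2351 to 3572 genes were called in KO and 2086 to 3315 in WT with 1 library left out, and 2 to 5 members in KO and 3 to 4 in WT.

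Deviations of same-numbered libraries had r = -0.103 between KO and WT Treg, -0.116 between KO and WT Teff, 0.053 between KO Treg and KO Teff and 0.056 between WT Treg and WT Teff (9381 genes). No positive r was over 0.1, so the numbers were not taken as pairs. Those between KO and WT were negative and slightly beyond 0.1 in size in both cell types. With the replicate block, members called were 1 in Treg and 3 in Teff, where Bmf was lost (limma adjusted p = 0.0677). The crossed block, added after seeing the data, gave 1 and 4.

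Log2 fold changes near 0 changed sign for Bax in KO over WT Teff under upper quartile (0.014), quantile (0.015) and TMM scaling (0.018). Those for Treg over Teff did so for Bbc3 in WT under quantile scaling (-0.0023), and for Bmf (0.0035) and Bax (0.059) in KO with library totals. With each library left out in turn, these log2 fold changes, none of them called, changed sign. For KO over WT in Treg, Bid lay between -0.088 and 0.092, Mcl1 between -0.019 and 0.097, Bax between -0.16 and 0.021 and Bak1 between -0.22 and 0.17. For KO over WT in Teff, Bid lay between -0.10 and 0.19, Mcl1 between -0.10 and 0.022, Bax between -0.075 and 0.068 and Bak1 between -0.46 and 0.32. For the KO effect in Treg minus that in Teff, Bid lay between -0.19 and 0.10, Bax between -0.15 and 0.024 and Bak1 between -0.35 and 0.44. For Treg over Teff in WT, Bbc3 lay between -0.064 and 0.11, Bax between -0.022 and 0.12 and Bak1 between -0.36 and 0.43. For Treg over Teff in KO, Bmf lay between -0.53 and 0.39, Bax between -0.10 and 0.073 and Bak1 between -0.11 and 0.28.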
